A study of Mus musculus with 42 samples.

Results

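The genes described here are 9 lymphocyte transcripts measured in whole mouse liver: Ltb, the B cell receptor chains Cd79a and Cd79b, the T cell receptor chains Cd3d, Cd3e and Cd3g, the coreceptor Cd8a, the kinase Lck and the granule gene Nkg7. They were chosen by name, with earlier results of these data known, as 9 of the 19758 gene names in the tables. Each was taken from every table that lists it. Livers came from 42 male C57BL/6J mice, 7 in each of 6 groups and 1 library per mouse. WT lean and KO lean mice ate a diet with 10% of its energy as fat, and WT obese and KO obese mice ate one with 60%, for 15 weeks from 6 weeks of age. These 4 groups were injected with vehicle (ethanol and PBS) on 4 days and harvested on day 5, and the WT obese+RvE1 and KO obese+RvE1 groups ate the 60% fat diet and received 300 ng of RvE1 in its place. RvE1 is a lipid mediator made from eicosapentaenoic acid, and ChemR23, the product of Cmklr1, is its receptor. The KO mice were made by CRISPR/Cas9 editing of the ChemR23 gene, with no driver for a single cell type named, and the WT mice were littermates.

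Ltb encodes lymphotoxin beta, a membrane ligand of the TNF family that B cells, T cells and innate lymphoid cells carry in a complex with lymphotoxin alpha. The complex binds the lymphotoxin beta receptor on stromal, myeloid and parenchymal cells, acts through the alternative NF-kB pathway and is known for maintaining chemokines such as Cxcl13 that draw B cells. Cd79a and Cd79b are the signalling partners of surface immunoglobulin, the Cd3 chains carry the signal of the T cell receptor, Lck is the kinase that starts that signal, Cd8a marks cytotoxic T cells and some dendritic cells, and Nkg7 lies in the granules of NK cells and cytotoxic T cells. Liver holds NK cells, T cells and B cells beside hepatocytes, Kupffer cells and endothelium. In bulk liver, fewer cells of a type and less RNA per cell cannot be told apart.

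The promoter windows of Ltb, Cd79a, Lck and Cd3g are printed because these genes were called in at least one comparison and have a RefSeq window. They show the 250 bases before the RefSeq start site on GRCm38.p6, read 5′ to 3′ on the gene's strand, with matches to the motifs listed after the windows in capitals. Lck has a pair of start sites, and both windows are given.

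Ltb, chr17:35194257-35194506, plus strand: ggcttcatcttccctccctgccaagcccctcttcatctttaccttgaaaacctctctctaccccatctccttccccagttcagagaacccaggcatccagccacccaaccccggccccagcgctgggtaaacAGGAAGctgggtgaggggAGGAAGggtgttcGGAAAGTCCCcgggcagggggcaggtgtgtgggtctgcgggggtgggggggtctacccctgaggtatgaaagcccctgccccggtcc

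Cd79a, chr7:24897247-24897496, plus strand: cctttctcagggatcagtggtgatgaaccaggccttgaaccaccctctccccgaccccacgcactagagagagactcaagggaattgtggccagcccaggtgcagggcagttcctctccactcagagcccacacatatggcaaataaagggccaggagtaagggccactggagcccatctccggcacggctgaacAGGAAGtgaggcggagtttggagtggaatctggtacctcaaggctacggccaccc

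Lck, upstream start, chr4:129573642-129573891, minus strand: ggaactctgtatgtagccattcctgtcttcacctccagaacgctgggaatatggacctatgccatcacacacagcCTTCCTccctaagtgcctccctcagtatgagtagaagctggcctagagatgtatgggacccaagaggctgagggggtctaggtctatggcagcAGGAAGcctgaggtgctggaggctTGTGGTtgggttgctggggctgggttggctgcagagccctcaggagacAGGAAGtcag

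Lck, downstream start, chr4:129558373-129558622, minus strand: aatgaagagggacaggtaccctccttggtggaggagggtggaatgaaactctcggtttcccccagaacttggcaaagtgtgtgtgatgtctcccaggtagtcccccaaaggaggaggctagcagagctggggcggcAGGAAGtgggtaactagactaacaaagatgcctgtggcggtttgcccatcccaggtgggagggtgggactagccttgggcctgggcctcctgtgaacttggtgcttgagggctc

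Cd3g, chr9:44980432-44980681, minus strand: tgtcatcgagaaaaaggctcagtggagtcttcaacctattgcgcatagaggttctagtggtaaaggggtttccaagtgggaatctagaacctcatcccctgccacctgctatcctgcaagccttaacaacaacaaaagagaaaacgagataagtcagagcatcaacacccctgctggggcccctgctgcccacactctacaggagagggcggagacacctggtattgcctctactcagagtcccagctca

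The motifs searched, on both strands, were the ETS core AGGAAG, the RUNX letters TGTGGT, the octamer ATGCAAAT, the EBF letters TCCCNNGGG, the E-box CAGCTG and the degenerate NF-kB consensus. RefSeq windows matched 8 of the 9 genes, with 9 windows in all. AGGAAG stood in 7 of the 9 windows and in 29.5% of the 32851 promoters of the same length. The Ltb window held AGGAAG at 118 to 113 and at 100 to 95 bases before the start, and GGAAAGTCCC, a reverse-strand match to the NF-kB consensus that overlaps neither, at 87 to 78 bases. The NF-kB consensus stood in 3.9% of all promoters and in 1 of the 9 windows. It was chosen after a looser form, with the middle letters free, had been searched, and that form stood in 17.6% of all promoters and in 2 of the 9 windows, those of Ltb and the downstream Lck start, where it is left in lower case. The Cd3g window held none of the motifs in capitals. The RUNX letters, in 14% of all promoters, stood in the upstream Lck window and that of Nkg7. The octamer, the EBF letters and CAGCTG, in 1.6%, 5.6% and 13% of all promoters, had no match in the 9 windows. These matches are letters in a window, and binding was not measured.

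Per the annotation on GRCm38, Ltb lies on chromosome 17 (35194439 to 35196320, plus strand), Cd79a on chromosome 7 (24897381 to 24902197, plus), Cd79b on chromosome 11 (106311341 to 106314762, minus) and Lck on chromosome 4 (129548344 to 129573641, minus). Cd3g, Cd3d and Cd3e are neighbours on chromosome 9, where Cd3g (44969572 to 44980431, minus) and Cd3d (44981786 to 44987339, plus) start close together and Cd3e (44998740 to 45009627, minus) follows. Cd8a lies on chromosome 6 (71373427 to 71379173, plus) and Nkg7 on chromosome 7 (43437073 to 43438249, plus). All are protein coding. Cd3e overlaps Gm48719 on the opposite strand and Gm48720 on its own, and the strand setting of the counting is not given in the sources used here, so the reads of Cd3e and Gm48719 may not have been told apart. Ltb overlaps the microRNA gene Mir6973a and Lck the microRNA gene Mir8119, each on its own strand.

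The deposited values are normalized counts, the authors' read counts divided by a size factor for each library, and they were compared only between the 14 libraries of a table. Depth ran from 15992525 to 43841120 reads on listed genes per mouse, and the 9 genes stood low at that depth, with 0 to 66 reads in each vehicle-treated mouse. Cmklr1, the deleted gene, had 12.7 ± 4.69 normalized counts in KO lean and 64.3 ± 25.1 in WT lean mice (SD, n = 7 each), so the labels and the gene's level ran the same way. Alb, the albumin gene of hepatocytes, had a mean of 584172 in KO lean and 749081 in WT lean liver. Markers of lymphocytes outside the 9 genes were present at low levels: in KO lean mice the B cell gene Ms4a1 averaged 24.1 normalized counts, and the NK cell gene Klrb1c 17.3. All 9 genes are listed in both diet tables and in the table of obese genotypes, 7 in the table of RvE1 in KO mice, 4 in the table of lean genotypes and 3 in the table of RvE1 in WT mice, and a gene was tested where its mean over the 14 libraries was at least 5.

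Per kilobase of exon, Ltb led in KO lean liver and shared the lead in WT lean liver. In the KO diet table the KO lean mean was 24.7 normalized counts per kb for Ltb (19.5 to 32.9 over the mice), 13.0 for Cd79a (5.71 to 24.0), 11.5 for Cd79b, 10.3 for Nkg7 and 7.65 for Lck (4.59 to 9.74). The 4 remaining genes, Cd3e, Cd3g, Cd3d and Cd8a, averaged 1.76 to 2.71 per kb. Ltb lay above every Lck value, whereas its range met that of Cd79a. In the WT diet table the WT lean mean per kb was 9.98 for Cd79a and 9.58 for Ltb, whose ranges overlapped almost entirely, and 6.73 for Nkg7, 5.41 for Cd79b and 3.73 for Lck. Cd8a, at 1.06 per kb, was lowest there too, and its range met those of all Cd3 chains.

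The comparison of KO lean with WT lean asks what loss of the receptor does without a high fat diet. Ltb, Lck and Cd79b were higher in KO lean liver, while Cd79a was not called. Ltb stood 2.25 times higher by the ratio of means, Cd79b 1.87 times and Lck 1.79 times. A call required a BH-adjusted p below 0.1 in limma together with a fold change above 1.5. That made 3 of the 4 genes tested, all of them higher, beside 3.94% of all 13031 genes called higher. The lean genotype table lists no gene with a mean under 9.09. Cd79b averaged 8.04 in WT lean and 15.0 in KO lean, so it is listed there only through KO lean. Its call is therefore not separate from that listing. With the leading number of the mouse identifiers fitted as a random block, 0 of the 4 were called in limma (adjusted p = 0.122 for Ltb), beside 3 of all 13031 genes. The genes were chosen with earlier results of these data known, so their count beside the share of all genes is a description and no test.

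For Ltb the KO lean mice ran from 26.9 through a median of 33.4 to 45.2 normalized counts, and the WT lean mice from 9.08 through 15.4 to 23.1. Each KO lean mouse lay above each WT lean mouse, a separation in this direction that 0.322% of the genes tested showed. The log2 fold change was 1.15 ± 0.20 (SE; 95% interval 0.73 to 1.57), with an adjusted p of 0.0247. Ordered by fold change, Ltb was number 54 of the 514 genes higher in KO lean.

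Lck, the kinase upstream of Zap70 in T cells and NK cells, ran from 12.2 through 21.1 to 25.9 normalized counts in KO lean and from 6.62 through 9.96 to 18.1 in WT lean mice. The groups overlapped, and 5 of 7 KO lean mice lay above all WT lean mice. The log2 fold change was 0.83 ± 0.25 (adjusted p = 0.0561). Cd79b ran from 9.59 through 12.2 to 23.6 in KO lean and from 2.43 through 8.15 to 13.2 in WT lean mice, with 3 of 7 KO lean mice above the WT lean range. Its log2 fold change was 0.88 ± 0.31 (adjusted p = 0.0826).

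Cd79a, the partner chain of Cd79b, ran from 7.56 through 14.9 to 31.7 in KO lean and from 10.4 through 13.9 to 22.6 in WT lean mice. The ranges covered each other, with a log2 fold change of 0.08 ± 0.30 and a 95% interval of -0.54 to 0.70 (adjusted p = 0.888). So the paired chains of one receptor were called apart, although the difference between their fold changes was not tested.

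The remaining 5 genes are not listed in the lean genotype table, and their values were rebuilt from the reads of the same libraries in the diet tables, an alternative chosen after seeing the data. On this scale Cd3e had 10.0 ± 5.93 in KO lean and 7.06 ± 3.27 in WT lean (log2 fold change 0.40, adjusted p = 0.483), Cd3g 7.92 ± 4.07 and 4.99 ± 2.26 (0.54, adjusted p = 0.374) and Nkg7 8.53 ± 3.48 and 6.40 ± 2.00 (0.32, adjusted p = 0.517). None of these was called, and the count stayed at 3, now of 7 genes tested. Cd3d and Cd8a remained under the mean of 5, at 3.37 and 5.80 in KO lean against 3.89 and 4.01 in WT lean.

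In the limma fit with that block the adjusted p was 0.160 for Lck and 0.169 for Cd79b, and 3 of all genes tested were called. Scaling the libraries to equal totals moved the median of all genes by -0.12 on the log2 scale and turned the calls over all genes from 514 higher and 352 lower into 265 higher and 734 lower, with Ltb (log2 fold change 1.04, adjusted p = 0.0308) and Lck (0.72, adjusted p = 0.0828) still called higher.

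**Figure D1:**
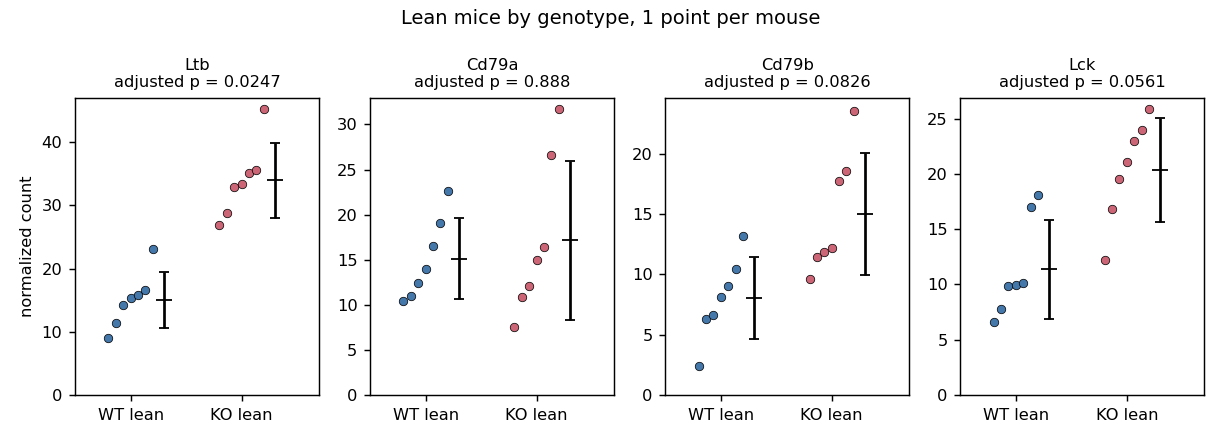
Normalized counts (vertical axis, from 0) of the 4 genes listed in the table of lean genotypes, with 1 point per mouse, 7 WT lean mice at left and 7 KO lean mice at right in each panel; the bar beside the points is the mean with its SD. For Ltb the KO lean mice (26.9 to 45.2) lie above the WT lean mice (9.08 to 23.1), while for Cd79a the ranges cover each other.

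The comparison of KO obese with KO lean asks what the high fat diet does in liver without the receptor. Of the 8 genes tested, 5 were lower in KO obese liver: Ltb, Cd79a, Cd79b, Lck and Cd3g, beside 5.42% of all 14213 genes called lower. The genes were chosen with earlier results of these data known, so this contrast describes them and is no test. Cd3g averaged 8.71 in KO lean and 3.54 in KO obese liver, so it passed the mean of 5 only through KO lean. The call of Cd3g is therefore not separate from that filter. The 3 uncalled genes, Cd8a, Nkg7 and Cd3e, also had fold changes below 0, and Cd3d, under the mean of 5, was not tested. Cd8a, too, passed the mean of 5 only through KO lean, at 6.39 there and 4.67 in KO obese. The median log2 fold change was -0.88 over the 8 genes and 0.00 over all genes. As the 8 include Cd3g and Cd8a, that median and the shared direction are not separate from the filter. The KO lean mice are shared with the comparison of lean genotypes, so that the fall with diet and the rise with genotype are not independent of each other.

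Ltb ran from 29.6 through 36.7 to 49.8 normalized counts in KO lean and from 10.6 through 13.2 to 24.5 in KO obese liver. No KO obese mouse reached the KO lean range, a separation that 1.11% of the genes tested showed in this direction. Ltb fell by 1.28 ± 0.21 on the log2 scale (95% interval -1.72 to -0.84, adjusted p = 0.00322), to 0.408 of its KO lean mean.

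The B cell receptor chains both fell. Cd79a ran from 8.32 through 16.4 to 35.0 in KO lean and from 2.64 through 8.82 to 15.4 in KO obese liver, and 3 of 7 KO obese mice lay below the KO lean range. Its log2 fold change was -0.94 ± 0.36 (adjusted p = 0.0825). Cd79b ran from 10.6 through 13.3 to 26.0 in KO lean and from 2.64 through 8.89 to 14.2 in KO obese liver, with 5 of 7 KO obese mice below the KO lean range and a log2 fold change of -0.94 ± 0.32 (adjusted p = 0.0567).

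Among the T cell genes the calls were split. Lck ran from 13.5 through 23.2 to 28.5 in KO lean and from 5.29 through 14.2 to 15.9 in KO obese liver, with a log2 fold change of -0.82 ± 0.25 (adjusted p = 0.0399). Cd3g ran from 2.69 through 7.73 to 14.8 in KO lean and from 0 through 3.86 to 9.23 in KO obese liver, where 2 mice had no read, and its log2 fold change was -1.42 ± 0.55 (adjusted p = 0.0864). Cd3e, at 11.0 ± 6.50 in KO lean and 9.03 ± 2.45 in KO obese, had a log2 fold change of -0.15 with a 95% interval of -0.81 to 0.51 (adjusted p = 0.778). Cd3d, at 3.71 ± 1.80 and 2.68 ± 2.61, had no read in 2 KO obese mice. So of the Cd3 chains Cd3g was called, Cd3e was not and Cd3d was not tested, and the difference between Cd3g and Cd3e was not tested.

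The genes of cytotoxic cells were not called. Cd8a had 6.39 ± 5.13 in KO lean and 4.67 ± 2.73 in KO obese liver, and its log2 fold change of -0.44 (95% interval -1.44 to 0.57) had an adjusted p of 0.564. Nkg7 had 9.39 ± 3.83 and 6.72 ± 2.62, with a log2 fold change of -0.42 (95% interval -1.12 to 0.27, adjusted p = 0.403). In both genes the intervals include the size of the fall in Lck.

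Ltb was called in all 30 refits run for this comparison, and not at the stricter threshold of an absolute log2 fold change above 1.5, which none of the 8 genes passed. With the identifier numbers fitted as blocks Ltb alone of the 8 genes was called (log2 fold change -1.29, adjusted p = 0.0202), with an adjusted p of 0.105 for Lck, 0.130 for Cd79b, 0.174 for Cd79a and 0.206 for Cd3g. Over all 14213 genes that block left 345 called higher and 405 lower. With equal totals, which moved the median of all genes by 0.14 and changed the calls from 706 higher and 770 lower to 1320 higher and 351 lower, Ltb was again the one called (-1.14, adjusted p = 0.00952). The call of Cd3g also ended in edgeR (adjusted p = 0.150) and DESeq2 (0.103) on the recovered reads.

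**Figure D2:**
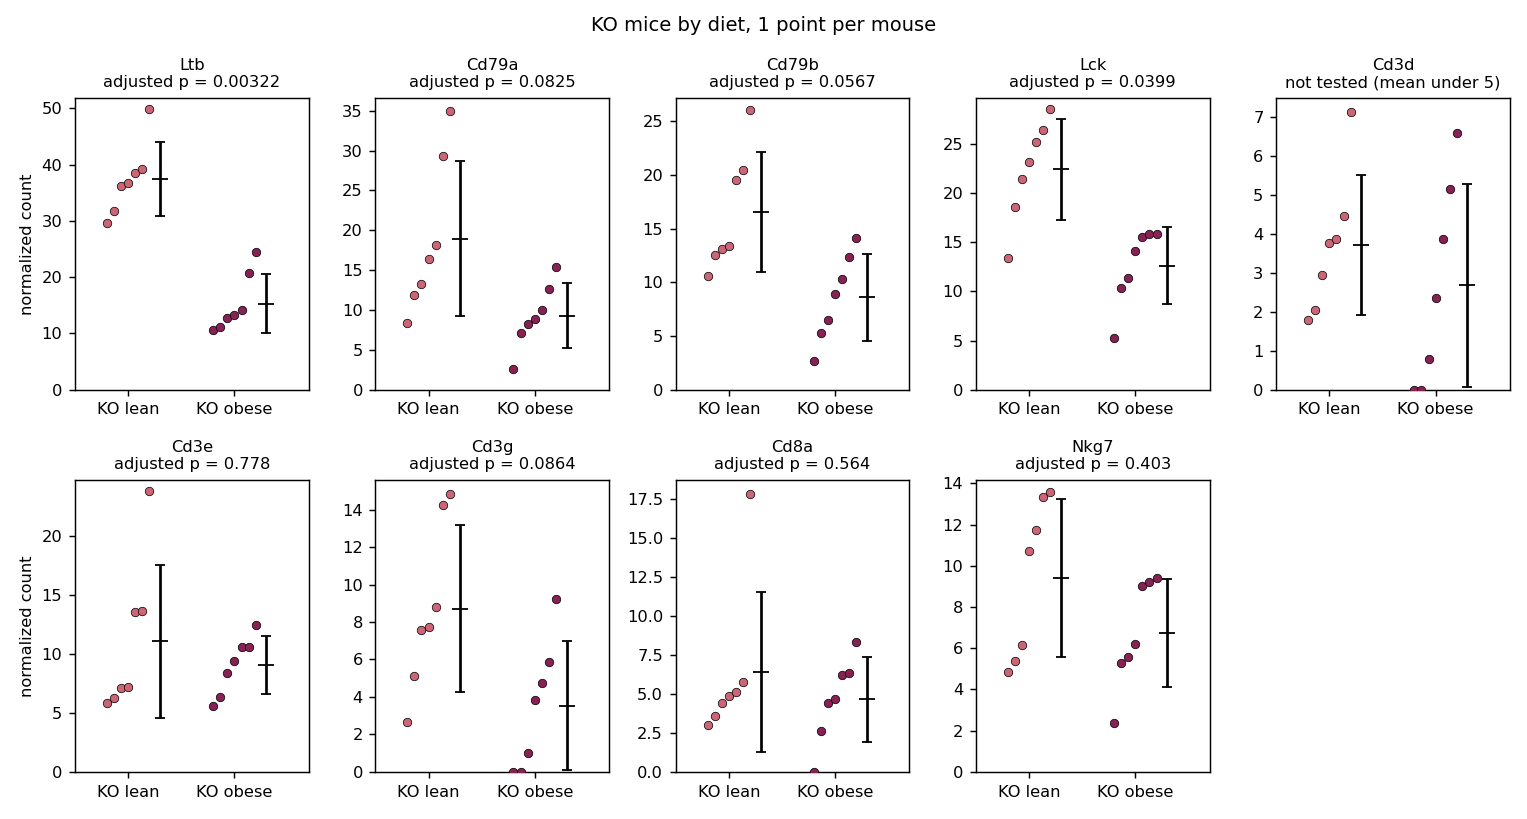
Normalized counts (vertical axis, from 0, each panel on its own scale) of the 9 genes in 7 KO lean and 7 KO obese mice, 1 point per mouse, with the mean and SD beside the points and the adjusted p of limma above each panel. Ltb is the panel in which the groups do not overlap, and Cd3d, Cd3g and Cd8a include KO obese mice at 0.

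Beyond the 9 genes, the B cell chemokine Cxcl13 was the one gene of the lymphotoxin and TNF axis called in either comparison. In lean mice, of 12 listed genes of the axis, 1 was called: Cxcl13, at 138 ± 117 in KO lean and 26.2 ± 13.4 in WT lean (log2 fold change 2.19, adjusted p = 0.0308). With the identifier numbers as blocks its adjusted p in limma was 0.138 here and 0.0509 in KO mice by diet. Ltbr, the receptor for the ligand, named here after its values were seen, stood at 2997 ± 472 in KO lean and 2192 ± 406 in WT lean, and its log2 fold change of 0.46 (adjusted p = 0.0536) was under the fold threshold. In KO mice by diet, Cxcl13 was again the one gene called, of 15 tested, at 29.6 ± 18.6 in KO obese and 152 ± 128 in KO lean (log2 fold change -2.18, adjusted p = 0.00825). The partner gene Lta is not listed in these tables, and Tnf, at 8.18 ± 8.41 in KO obese and 4.27 ± 2.84 in KO lean, was not called (adjusted p = 0.656).

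Other B cell genes ran in the direction of the Cd79 chains. In lean mice 1 of 6 tested was called higher in KO, Ms4a1, which encodes CD20 (24.1 ± 8.60 against 11.7 ± 6.10, log2 fold change 1.09, adjusted p = 0.0683), and all 6 fold changes were above 0. In KO mice by diet 3 of 7 were called lower in KO obese, among them Ms4a1 (log2 fold change -1.68, adjusted p = 0.0134) and Fcrla (-0.90, adjusted p = 0.0870). The median over the B cell list was 0.54 in the first comparison and -0.62 in the second. With the identifier numbers as blocks in limma 0 of 6 were called in lean mice (adjusted p = 0.161 for Ms4a1) and 1 of 7 in KO mice by diet, Ms4a1 (adjusted p = 0.0528). Plasma cell genes had 0 of 3 called in lean mice in limma and 2 of 4 called lower in KO obese, Mzb1 (-0.95) and Sdc1 (-0.97), of which Sdc1, a syndecan that hepatocytes also make, averaged 7125 and 13808 normalized counts in KO obese and KO lean. With the block Sdc1 was called (adjusted p = 0.0195) and Mzb1 was not (adjusted p = 0.196).

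Calls among other T cell and NK cell genes were few, and of the T cell genes called in KO mice by diet Themis alone was higher in KO obese. The T cell list did not move one way. It had 5 fold changes above 0 and 5 below in KO mice by diet (median -0.09). Between lean genotypes it had 3 above 0 and 3 below (median 0.22). In lean mice Icos, a costimulatory receptor of T cells, was the 1 of 6 T cell genes called higher in KO (0.88, adjusted p = 0.0755), and Klrk1 and Klrd1, receptors of NK cells and cytotoxic T cells, were the 2 of 7 NK genes called higher (0.93 and 1.23, adjusted p of 0.0308 and 0.0448). In KO mice by diet Cd247 and Cd2, signalling and adhesion genes of T cells, were called lower (-0.90 and -1.47, adjusted p of 0.0243 and 0.0306), as were Klrk1 (-0.84), Il2rb (-0.88) and Klrb1c (adjusted p = 0.0828) of 9 NK genes, all 9 with fold changes below 0 and a median of -0.84. Cd247 averaged 3.62 in KO obese and 7.63 in KO lean, and Cd2 4.20 and 11.5. Both passed the mean of 5 only through KO lean, so no call of either is separate from that filter. With the identifier numbers as blocks in limma none of the T cell and NK genes was called in lean mice (lowest adjusted p of 0.169 and 0.138), and Cd2, Klrk1 and Il2rb were called lower in KO obese (adjusted p of 0.0914, 0.0388 and 0.0734). Themis, a thymocyte selection gene, went the other way, from 24.5 ± 24.2 in KO lean to 450 ± 386 in KO obese (log2 fold change 3.80, adjusted p = 0.00500). Lck and Cd3e averaged 12.6 and 9.03 in the same KO obese mice. Which cells held the Themis transcript was not tested. Themis also rose with diet in WT mice (9.82 ± 9.98 to 310 ± 410, log2 fold change 4.42, adjusted p = 0.00139).

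Of antigen receptor signalling genes 1 of 18 was called in lean mice, Zap70, higher in KO (515 ± 292 against 237 ± 59.9, log2 fold change 0.98, adjusted p = 0.0493), and 3 of 22 were called lower in KO obese, among them Cd247 and Cd2 as above. Lck averaged 20.4 in the same KO lean mice, and which cells held the Zap70 transcript was not tested. Homing receptors had 3 of 8 called higher in KO lean, among them Cxcr3 (0.97) and Cxcr6 (0.67), and 2 of 9 called lower in KO obese, Cxcr6 (-0.79, adjusted p = 0.0320) and Cxcr3 (-0.71, adjusted p = 0.0632). With the identifier numbers as blocks in limma 0 genes of both lists were called in lean mice (lowest adjusted p of 0.157 and 0.146), and 1 of each was called lower in KO obese, Cd2 and Cxcr6 (adjusted p = 0.0989 for Cxcr6). The lists overlap, and Cd2 and Cd247, for example, are counted in more than one.

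Kupffer cell genes were called in the direction of the lymphocyte genes in both comparisons. With the identifier numbers as blocks in limma 0 of 11 were called in lean mice (lowest adjusted p = 0.111) and 7 of 11 in KO mice by diet. Without the block, in lean mice 9 of 11 were called higher in KO (median log2 fold change 0.84), among them Clec4f (3031 ± 1266 against 1509 ± 476), Vsig4 (613 ± 98.6 against 351 ± 109) and C1qa (log2 fold change 1.01, adjusted p = 0.0205). Their summed level ran from 10417 to 21863 in KO lean and from 4583 to 9535 in WT lean mice. In KO mice by diet 8 of 11 were called lower in KO obese (median -0.89), and the sum ran from 6406 to 8957 against 11481 to 24112 in KO lean. The sum of 8 hepatocyte genes had medians of 1312090 in KO lean and 1518830 in WT lean in the first table, and 0 of 8 were called in either comparison in limma. Monocyte and neutrophil genes had 2 of 5 called higher in KO lean (median 0.78, all 5 above 0) and 1 of 7 called lower in KO obese. Sinusoidal endothelium had 1 of 8 called higher in KO lean and 2 of 8 called lower in KO obese, cholangiocytes 1 of 4 called lower in KO lean, and stellate and erythroid genes 1 of 6 and 1 of 3 called lower in KO obese. The remaining counts of these lists, and all those of dendritic cells and adipocytes, were 0 in limma in both comparisons. The part of other cell types in the result for Ltb was not tested.

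The same diet in WT mice gave no call among these genes. In limma 0 of 6 tested were called, 0 had an unadjusted p under 0.05, and edgeR and DESeq2 called 0, beside 3.8% of all 14012 genes called in either direction. Ltb ran from 8.69 through 14.8 to 22.3 normalized counts in WT lean and from 7.50 through 15.5 to 33.8 in WT obese mice, so the WT obese range held the whole WT lean range. Its log2 fold change was 0.21 ± 0.30 (95% interval -0.42 to 0.84, adjusted p = 0.765). Cd79b had 7.74 ± 3.30 in WT lean and 12.3 ± 7.99 in WT obese, with a log2 fold change of 0.43 (95% interval -0.48 to 1.35). The remaining 4 tested genes had fold changes between -0.26 and 0.28 on the log2 scale.

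Whether the diet effect differed between genotypes was tested as an interaction in limma, called at an adjusted p under 0.1. For Ltb the diet effect in KO mice was lower than that in WT mice by -1.49 ± 0.36 on the log2 scale (95% interval -2.22 to -0.76, adjusted p = 0.141), and for Cd79b by -1.37 ± 0.55 (adjusted p = 0.183). None of the 6 tested genes was called, beside 0.00718% of all genes, and 2 of 6 had an unadjusted p under 0.05 beside 18.3% of all 13924 genes. Of the 6 genes edgeR and DESeq2 called 0, while over all genes edgeR called 1 and DESeq2 926. With library quality weights Ltb (-1.59, adjusted p = 0.00984) and Cd79b (-1.56, adjusted p = 0.0496) were called, beside 18.4% of all genes under those weights. Over the 14162 genes tested 0.0141% were called between KO obese and WT obese, and 0 of 7 of the lymphocyte genes. Ltb stood at 14.7 ± 5.16 in KO obese and 19.9 ± 9.89 in WT obese there, a log2 fold change of -0.33 (95% interval -0.98 to 0.31). Lck was the 1 of the 7 above 0 (0.29, 95% interval -0.27 to 0.85), and none of the 7 had an unadjusted p under 0.05 or was called by edgeR or DESeq2.

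RvE1 gave no call among these genes in either genotype, where limma called 0% of all genes. Over all genes edgeR called 1 and DESeq2 15 of 13085 in WT mice, and 0 and 14 of 14207 in KO mice. In KO mice Ltb ran from 10.7 through 13.2 to 24.9 normalized counts in KO obese and from 9.47 through 27.8 to 55.7 in KO obese+RvE1, and 4 of 7 treated mice lay above the KO obese range while 1 lay below it. The SD of Ltb was 16.3 with RvE1 and 5.38 without. The log2 fold changes were 0.73 for Ltb (95% interval 0.01 to 1.46, adjusted p = 0.592), 0.88 for Cd79a (95% interval 0.00 to 1.76, adjusted p = 0.596) and 0.77 for Cd79b (95% interval 0.00 to 1.54, adjusted p = 0.596). In limma 0 of 7 were called and 2 of 7 had an unadjusted p under 0.05, beside 8.3% of all 14207 genes, and edgeR and DESeq2 called 0. Lck (0.40), Cd8a (0.19), Nkg7 (0.17) and Cd3e (-0.03) had intervals on both sides of 0.

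In WT mice Ltb had 25.8 ± 10.2 with RvE1 and 21.3 ± 10.5 without (log2 fold change 0.31, 95% interval -0.37 to 1.00), Cd79a 22.6 ± 12.5 and 15.6 ± 7.94 (0.46, 95% interval -0.35 to 1.27) and Cd79b 17.9 ± 8.59 and 14.4 ± 9.41 (0.37, 95% interval -0.68 to 1.42). In limma 0 of 3 were called, none had an unadjusted p under 0.05, and edgeR and DESeq2 called 0. The effect of RvE1 in KO mice less that in WT mice was 0.42 for Ltb (95% interval -0.56 to 1.41, adjusted p = 1.00), and 0 of 3 genes were called for this interaction in limma, edgeR and DESeq2, with none at an unadjusted p under 0.05. An interval of that width leaves room for effects of more than 1 log2 unit.

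**Figure D3:**
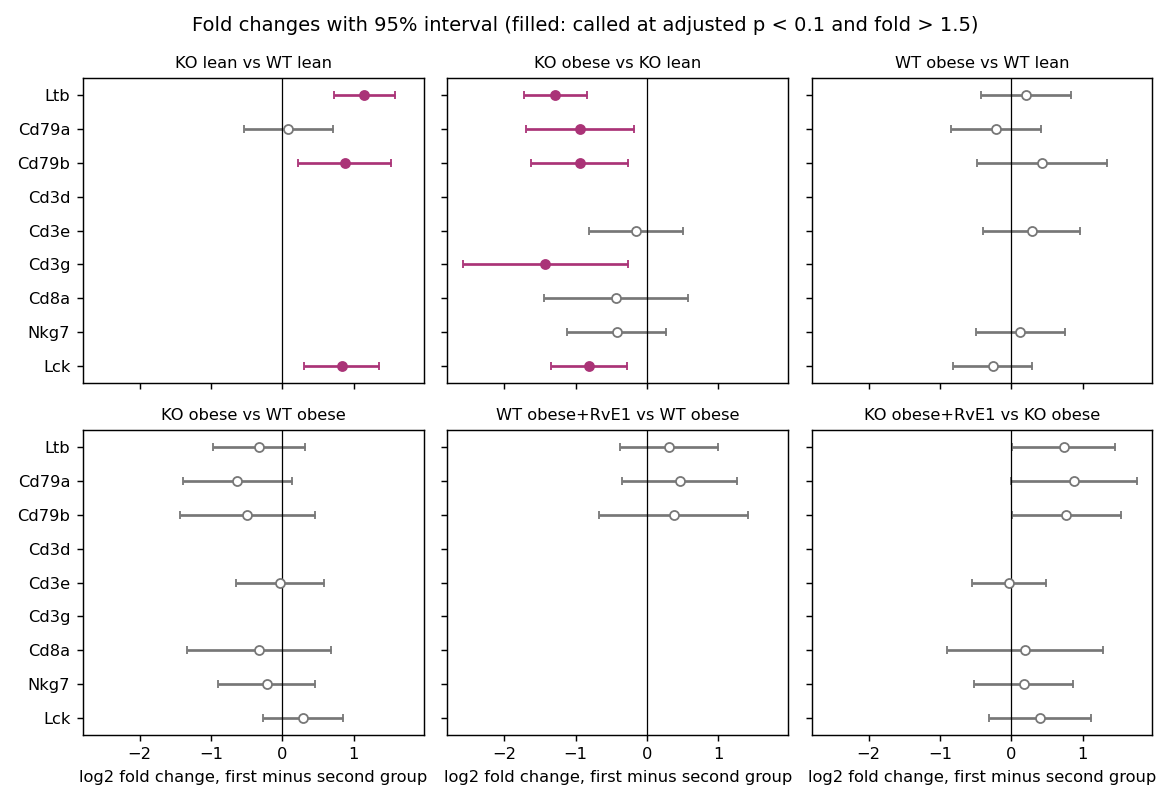
Log2 fold change (horizontal axis, first less second group named above each panel) of each tested gene with its 95% interval, in the 6 comparisons; filled points were called (adjusted p below 0.1, fold change above 1.5), open points were not, and a missing point was not listed or not tested. The 3 filled points of KO lean vs WT lean lie above 0 and the 5 of KO obese vs KO lean below 0.

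Mice whose identifiers open with the same number had like levels of some of these genes. The titles do not say what the number marks, and no number holds mice of both groups in 5 of the 6 comparisons, so number and group cannot be told apart there. In KO lean mice Cd79a was 29.3 and 35.0 in the pair numbered 9 and 8.32 to 18.1 in the 5 mice numbered 14 and 20. Lck ran the other way in the same animals, at 13.5 and 18.6 in the pair numbered 9 and 21.5 to 28.5 in the others. In WT obese mice Cd79a was 18.8 to 21.3 in the 3 mice numbered 6 and at most 8.4 in the 4 numbered 22 and 27. For Ltb each KO lean number stood above all KO obese mice, at 29.6 to 36.2 for number 9, 31.7 to 36.7 for 14 and 38.6 to 49.8 for 20, against at most 24.5 in KO obese.

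Without the pair numbered 9, the fold change of Cd79a between diets in KO mice moved from -0.94 to -0.59 (adjusted p = 0.322), and that of Cd79b to -0.75 (adjusted p = 0.207), while Ltb (-1.35, adjusted p = 0.0163) and Lck (-0.99, adjusted p = 0.0546) were called. Number 23 was the one held by both groups of a comparison, RvE1 in KO mice. Within it Ltb was 16.5 and 34.0 in the 2 treated mice and 10.7 in the 1 untreated mouse, a difference of 1.08 on the log2 scale with no test.

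**Figure D4:**
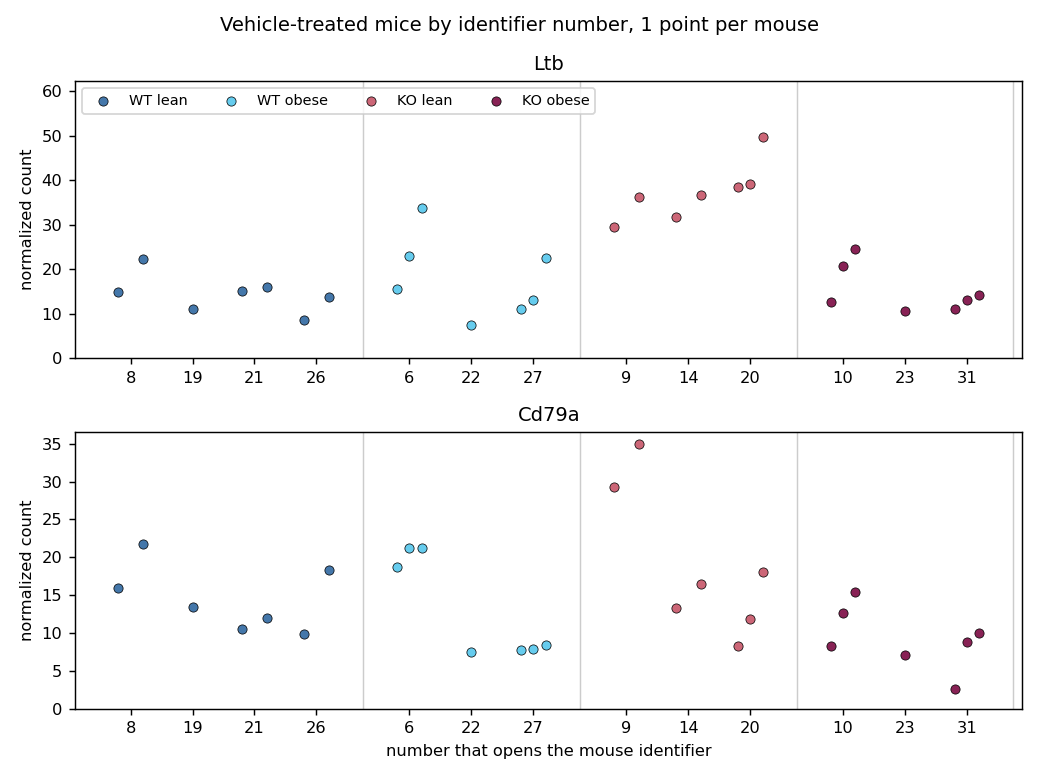
Normalized counts (vertical axes, from 0) of Ltb and Cd79a in the 4 vehicle-treated groups, 1 point per mouse, placed by the number that opens the mouse's identifier; colours mark the groups, WT mice are from the WT diet table and KO mice from the KO diet table, so heights compare only within a genotype. Cd79a splits by number in WT obese mice (18.8 to 21.3 for number 6, at most 8.4 for 22 and 27) and in KO lean mice, and Ltb in KO lean mice is at 29.6 or above for each number.

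The genes whose levels varied most like Ltb across single mice were sought over all tables used. Likeness was Pearson's r of log2(normalized count + 1) less the group mean, over 42 mice and 13049 ranked genes, and is a description, since mice share depth and library composition. The 5 highest outside the 9 genes were Ms4a6b (r = 0.73, Spearman's rho 0.69), Socs1 (0.70, 0.63), Coro1a (0.70, 0.63), Rgs19 (0.68, 0.65) and Ly86 (0.67, 0.61). Without the 2 mice farthest from the median of Ltb these r values ran from 0.56 to 0.65. Coro1a encodes an actin regulator of leukocytes, Socs1 an inhibitor of cytokine signalling and Ly86 a partner of a receptor on B cells and myeloid cells. Of the genes listed in all tables used, Cd79b ranked 40 (r = 0.58) and Cd79a 254 (r = 0.44). Among the 9 genes themselves, over the 28 vehicle-treated mice, the highest r was 0.67 for Cd79a with Cd79b and 0.66 for Cd3d with Cd3g.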

How the data were processed

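Total RNA libraries of 42 livers were made with a stranded TruSeq kit and sequenced as read pairs. The authors aligned the reads to mm10 with Bowtie2, counted them with featureCounts (Subread), and scaled the counts with size factors from DESeq2, once per comparison. The deposited signal values are therefore normalized counts, comparable within each of 6 tables. The deposited tables also hold fold changes and p-values of the authors, which were not used. Versions, gene annotation and the strand option were not given in the sources used here. The submitters label the molecule as polyA RNA, although the kit is described for total RNA.

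All values (100%) were whole reads within a tolerance of 0.1 reads, and 0 reads differed between tables for a shared library. Each comparison was tested with limma 3.58.1 (trend, two-sided, R 4.3.3) on log2(normalized count + 1), so fold changes of low genes are understated, over genes with a mean of at least 5, with Benjamini-Hochberg adjustment over all of them. A call required an adjusted p below 0.1 together with a fold change above 1.5, and interactions, fitted over the 28 libraries of 2 tables, at an adjusted p under 0.1. Nothing states that mice are independent litters, so p-values measure the spread between these mice. The procedure was tested on simulated data.

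The members and the lists were chosen with earlier results of these data known. The text names the 9 members, the defining genes of each list, up to 4 called genes per list and comparison, and the 5 genes most like Ltb. Alternatives were pseudocounts of 0.5 and 4, no filter, TMM, equal totals, a length and GC correction (loess span 0.3, 92.9% of names matched), quality weights, the identifier number as a random block, stricter thresholds, edgeR 4.0.16 and DESeq2 1.42.0 on the recovered reads, and mice left out. Counts over the lists under the block, and mice left out by number for KO mice by diet, were added after seeing the data. Lists of plasmacytoid and conventional dendritic cells, stellate cells, cholangiocytes, erythroid cells, adipocytes, monocytes and endothelium were also read. Promoters came from RefSeq (GRCm38.p6) and gene positions and lengths from GENCODE M21 (GRCm38, the build of mm10). Values of some genes on the lists are not reported here.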

Additional observations from a re-analysis of the deposited data

Results flagged for a closer look

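Of 46 sets of 7 mice examined, 1 for each listed gene in each group, 3 held a mouse far from the other 6 by Dixon's gap criterion. Chance meets this criterion in about 1 in 20 sets of normally distributed values. The counts here are low and were not logged, so that rate need not hold for them. Cd3e in WT obese replicate 6 was 17.8 normalized counts, and the next mouse was at 10.4. Cd8a in KO lean replicate 3 was 17.8, and the next mouse was at 5.80. The KO lean mean was 6.39 with this animal and 4.48 without it. Cd3e in KO obese+RvE1 replicate 4 was 15.0, and the next mouse was at 9.13. None of the 3 concerns a gene called in that comparison.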

How the results depend on the processing

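Ltb was called lower in KO obese than in KO lean liver in all 30 refits (log2 fold change -1.53 to -1.05), and higher in KO lean than in WT lean in 30 of 32 (1.00 to 1.29). It was called in neither comparison above an absolute log2 fold change of 1.5. The 2 refits without the call were the replicate block (adjusted p = 0.122) and leaving out the mice numbered 26 (adjusted p = 0.106). The block correlation was 0.217 for lean genotypes and 0.237 for KO mice by diet. The titles do not tie the replicate numbers across groups to a shared animal, litter or day.

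Between KO obese and KO lean, 5 members were called. The count was 2 at an adjusted p under 0.05, 0 above an absolute log2 fold change of 1.5, 1 with equal totals, 2 with the length and GC correction and 1 with the replicate block. Over all 14213 genes 1476 were called, and 1104, 135, 1671, 1240 and 750 in those settings, in that order. The member count ran from 2 to 5 with 1 mouse left out. Without the mice numbered 10, 20 or 23 it was 3, and without those numbered 9, 14 or 31 it was 2. Over all genes tested those refits called 1387, 2019, 1739, 909, 1493 and 639, in that order. Between KO lean and WT lean, 3 members were called. The count was 1 at an adjusted p under 0.05, 0 above an absolute log2 fold change of 1.5, 0 with the replicate block and 1 to 3 with 1 mouse left out. Over all 13031 genes the calls went from 866 to 480, 11 and 3 at those thresholds and with the block. The member count was 0 without the mice numbered 26 and 1 without those numbered 9, 14 or 21. Over all genes those refits called 8, 15, 818 and 32, in that order. In the diet by genotype interaction 2 members were called with quality weights, beside 18.4% of all genes. The other settings called 0 members, although DESeq2 called 926 of all 13924 genes. The replicate block changed no other count. The causes were not tested.

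Directions turned in uncalled genes near 0. For Cd79a between lean genotypes the log2 fold change was -0.028 with equal totals, -0.081 with the length and GC correction, -0.27 without the mice numbered 9, -0.041 without those numbered 21 and -0.085 to 0.24 with 1 mouse left out. For Cd3e between diets in KO mice it was 0.15 without the mice numbered 20 and -0.26 to 0.049 with 1 mouse left out. Between obese genotypes Cd3e was 0.0023 with the replicate block and -0.12 to 0.15 with 1 mouse left out, and Cd8a -0.44 to 0.038. For RvE1 in KO mice Cd3e was 0.039 with equal totals, 0.036 with the length and GC correction, 0.025 with quality weights, 0.023 in edgeR, 0.024 in DESeq2 and -0.15 to 0.049 with 1 mouse left out. Cd8a was -0.47 with quality weights and -0.18 to 0.40 with 1 mouse left out, and Nkg7 -0.012 to 0.27.

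Reads ran from 0 to 66 per mouse for these genes, and Cd3d was under the mean of 5 in each of the 3 tables that list it.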
